A study of Homo sapiens with 30 samples.

Results

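The protein arginine methyltransferase genes were followed through 15 treatment groups of A549 cells, a human lung adenocarcinoma line. They are the 8 genes PRMT1, PRMT2, PRMT3, CARM1, PRMT5, PRMT6, PRMT7 and PRMT9, taken by gene name from a count table of 58780 genes. Of the 22919 genes that passed the filter on low counts, 7 were members, and PRMT6 did not pass. The study used precision run-on sequencing (PRO-seq), in which RNA polymerases that are engaged on DNA in permeabilised cells add labelled nucleotides, so that the reads show nascent RNA rather than mature messenger RNA. It asked how nascent transcription responds to inhibitors of these enzymes and to a glucocorticoid, given alone or in combination. GSK591, an inhibitor of PRMT5, and MS023, an inhibitor of the type I enzymes, were each used at 1 uM. Dexamethasone (Dex), a synthetic glucocorticoid, was used at 100 nM, and all groups were kept in 0.01% DMSO.

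Each group had 2 samples. Besides untreated cells, whose label gives 15 min in DMSO, Dex was given alone for 15 min or 3 h. Each inhibitor was given alone for 2, 4 or 7 days. Dex was also given together with GSK591 or with MS023 for 3 h. In the last 4 groups, 7 days of GSK591 or of MS023 were followed by Dex for 15 min or 3 h. Nothing in the labels says that the 2 samples of a group came from separate cultures, so p-values measure the spread between these samples, which may be technical. All 14 comparisons with untreated cells share the same 2 untreated samples, and their values are set side by side rather than counted as separate evidence. No group was kept in DMSO alone for 3 h or for 2, 4 or 7 days. Comparisons of these longer treatments with untreated cells therefore cannot tell the treatment apart from time in culture.

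Protein arginine methyltransferases move methyl groups from S-adenosylmethionine to arginines of histones, splicing factors, RNA-binding proteins and transcription regulators. Type I enzymes (PRMT1, PRMT3, CARM1 and PRMT6, with PRMT2 as a weak member) make asymmetric dimethylarginine, and PRMT1 makes most of it. Type II enzymes (PRMT5 and PRMT9) make symmetric dimethylarginine, and PRMT7, of type III, makes monomethylarginine only. CARM1 and PRMT1 are known as coactivators of nuclear receptors, the family to which the glucocorticoid receptor belongs.

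The promoters of PRMT1, PRMT3 and PRMT5 are shown because these members gave 23 of the 24 changes that passed the test below. PRMT5 gave only 1 of the 24, the same number as PRMT7, whose windows are not shown. The sequences are from RefSeq (GRCh38.p14, the assembly that hg38 names) and cover 300 bases each, most of them upstream of the annotated start site, in the direction of transcription. All 8 members matched the RefSeq table, with 10 start sites between them. The windows lie at chr19:49677021-49677320 (plus strand) for PRMT1, chr11:20387466-20387765 (plus strand) for PRMT3 and chr14:22929327-22929626 (minus strand) for PRMT5. Capitals mark motif matches on either strand, where a match on the other strand appears as its reverse complement. The CCAAT box was searched by those letters. For the GC box of the Sp and KLF factors the letters were GGGCGG. The core bound by ETS factors was searched as CCGGAAG. An E-box was searched as CACGTG, and the core bound by YY1 as AAGATGGC. None of the marked matches overlap each other.
PRMT1: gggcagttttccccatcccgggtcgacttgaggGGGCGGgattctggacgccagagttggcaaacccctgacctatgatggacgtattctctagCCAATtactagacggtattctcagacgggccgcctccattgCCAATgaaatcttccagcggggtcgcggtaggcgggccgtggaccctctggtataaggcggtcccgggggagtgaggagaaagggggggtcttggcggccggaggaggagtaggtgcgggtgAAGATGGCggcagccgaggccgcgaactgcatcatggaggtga
PRMT3: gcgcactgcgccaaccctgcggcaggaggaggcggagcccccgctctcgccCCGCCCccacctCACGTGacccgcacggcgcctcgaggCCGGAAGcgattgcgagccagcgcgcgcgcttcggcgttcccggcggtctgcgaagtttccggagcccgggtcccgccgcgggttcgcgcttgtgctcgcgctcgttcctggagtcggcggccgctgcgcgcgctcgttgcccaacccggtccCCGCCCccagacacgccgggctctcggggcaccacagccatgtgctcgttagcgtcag
PRMT5: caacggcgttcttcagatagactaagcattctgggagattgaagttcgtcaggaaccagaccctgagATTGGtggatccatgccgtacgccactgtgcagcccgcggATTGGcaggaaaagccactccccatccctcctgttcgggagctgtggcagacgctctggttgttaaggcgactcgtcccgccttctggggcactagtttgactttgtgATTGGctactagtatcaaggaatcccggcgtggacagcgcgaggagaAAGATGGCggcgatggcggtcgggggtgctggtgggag

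The PRMT1 and PRMT5 windows shared 2 kinds of match. CCAAT boxes began at positions -156 and -115 in PRMT1 and at -183, -143 and -35 in PRMT5, counted from the start site as position 1 with no position 0. The YY1 core began at position 8 in PRMT1 and at 13 in PRMT5. Among 35116 RefSeq promoters of this length, 34.6% held CCAAT and 2.89% held the YY1 core, and among the 10 member promoters both were in the windows of PRMT1 and PRMT5 only. PRMT3 held an E-box at -187 and an ETS core at -161, which 7.26% and 10.3% of all promoters hold. The GC box was in 8 of the 10 member promoters and in 45% of all. An E2F core (TTCCCGC) was in 2 member promoters, those of PRMT9 and of 1 PRMT7 start, against 6.55% of all. TATAAA, the TATA box, was in 0 of 10 against 11.5% of all, and the NRF1 core GCGCATGCG in 0 of 10 against 1.92%. AGAACA, the half-site of the glucocorticoid receptor element, was in 0 of 10 member windows and in 14.8% of all. PRMT2, CARM1 and PRMT7 held no motif of this set but the GC box and, in PRMT7, the E2F core. These matches describe the letters of the windows and were not tested as binding sites.

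Libraries held 8441211 to 13069598 counts, of which mitochondrial genes took 58.7% to 78.7%. The mitochondrial share was 73.4% and 76.0% in the 2 untreated samples and 58.7% to 66.1% in the 10 samples treated with MS023 for 2 days or longer. No 2 libraries were identical, and the correlation of log2 CPM between the samples of a group ran from 0.926 for Dex with MS023 to 0.985 for MS023 at 4 days. All 9 A549 markers that were checked had counts in every library, with KRT8 at a mean of 261 CPM. Of the leukocyte markers, PTPRC was at 0 in 13 of 30 libraries and CD3E in 21. CD14 had 6 to 59 counts per library. The summed level of the 13 markers of other cell types was 13.6 to 15.5 CPM in untreated samples and 23.4 to 25.4 CPM after 7 days of MS023, with SFTPB and COL1A1 as its largest terms (means of 7.25 and 4.39 CPM). Its part in the results below was not tested.

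In untreated cells the members differed widely in level. CPM, counts scaled to library size with TMM factors, were divided by the annotated exonic length to compare genes. Whether reads in introns were counted is not given, and exons make up 4.49% of the PRMT3 gene but 36.2% of the PRMT1 gene. The order of the genes and the percentiles below therefore depend on this divisor. PRMT1, the main type I enzyme, was at 11.7 ± 0.0516 CPM per kb of exon (SD, n = 2), the highest of the 8. PRMT2 followed at 3.94 ± 0.348 and PRMT3, a type I enzyme that methylates ribosomal protein S2, at 3.92 ± 0.219 CPM per kb, and these 2 did not differ beyond their spread. PRMT5, the main type II enzyme, was at 2.40 ± 0.177 and PRMT7 at 2.30 ± 0.0737 CPM per kb, again within their spread. PRMT9, a type II enzyme that methylates the splicing factor SF3B2, was at 1.38 ± 0.146 and CARM1 at 1.36 ± 0.0559 CPM per kb, also within their spread. PRMT6 was lowest at 0.0373 ± 0.0198 CPM per kb. Over all 30 samples PRMT1 stood at percentile 92.5 of tested genes by CPM per kb, and the other tested members ran from percentile 43.4 (PRMT9) to 77.0 (PRMT2).

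**Figure D1:**
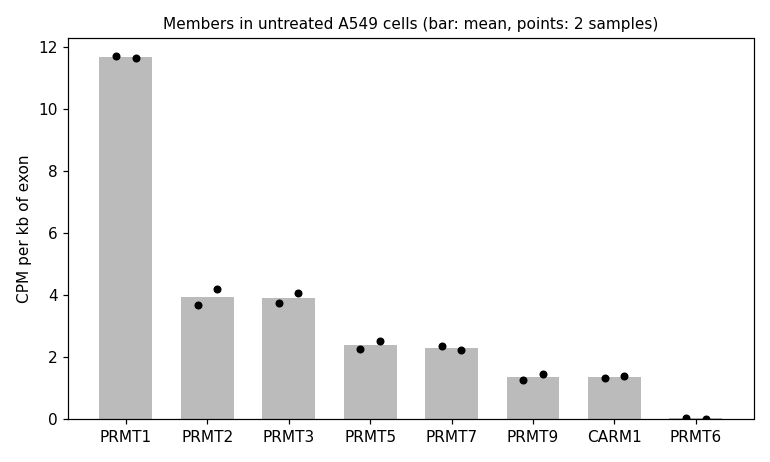
CPM per kb of exon of the 8 members in untreated A549 cells, with bars for the mean and points for the 2 samples. PRMT1 lies at 11.7 CPM per kb, above PRMT2 and PRMT3 at 3.94 and 3.92, and PRMT6 lies near 0. Whether reads in introns were counted is not given, so the order of genes depends on the exonic length as divisor.

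PRMT6, a type I enzyme that methylates histone H3, was close to undetected. It had 19 counts in all, at most 4 in a library and 0 in 20 of 30 libraries. A count of 0 allows up to 3 counts, or 0.212 to 0.410 CPM depending on the library, so differences between groups below that level were not detectable. It entered no test.

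By GENCODE 29 on GRCh38, PRMT1 lies at chr19:49675786-49689029 on the plus strand, PRMT3 at chr11:20387530-20509294 on the plus strand and PRMT5 at chr14:22920511-22929585 on the minus strand. Exons of 4 members overlap those of other genes, and the sources used here do not give whether counting used strand. PRMT5 shares 27.1% of its exonic bases with PRMT5-AS1 on the opposite strand, CARM1 shares 19.9% with YIPF2 on the opposite strand, and PRMT7 shares 2.53% with SMPD3 on the opposite strand. PRMT1 shares 7.63% with ADM5 on the same strand and 3.57% with AC011495.3 on the opposite strand, which had 0 counts. Reads of shared bases cannot be told apart between such genes. ADM5, with a mean of 8.58 CPM, fell relative to untreated cells with Dex at 3 h (log2 fold change -1.08 ± 0.186 SE) and in all 6 groups of an inhibitor alone, from -0.52 to -0.94. PRMT5-AS1 differed from untreated cells by -0.05 to 0.42 in these 7 comparisons and passed the test in none, nor did YIPF2 or SMPD3. PRMT2, PRMT3, PRMT6 and PRMT9 overlap no other exon.

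PRMT1 was highest in untreated cells of all 15 groups, and 13 of the 14 treated groups were called lower. A comparison is called here when the adjusted p of edgeR's quasi-likelihood test, with Benjamini-Hochberg adjustment over all tested genes, is below 0.05. In bulk samples fewer cells with active transcription and less transcription per cell cannot be told apart. The 2 untreated samples had 56.2 and 55.8 CPM of PRMT1. The 2 samples of Dex at 15 min had 47.3 and 44.3 CPM, and those of Dex at 3 h had 30.4 and 34.9 CPM. The samples of neither Dex time overlapped the untreated ones. At 3 h the log2 fold change was -0.78 ± 0.112 (SE, adjusted p = 6.26e-07), that is 58.3% of the untreated mean. At 15 min it was -0.29 ± 0.108 with an adjusted p of 0.319 (unadjusted p = 0.00981), which did not pass, and total-count scaling put it at 0.03.

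Dex at 3 h was also the comparison in which PRMT3 and PRMT5 were both called. PRMT3 had 20.6 and 22.3 CPM in untreated samples and 16.1 and 15.1 CPM after 3 h of Dex, with no overlap. Its log2 fold change was -0.46 ± 0.145 (adjusted p = 0.0309). The PRMT3 call was lost when any 1 of the 4 samples was left out, with log2 fold changes of -0.40 to -0.51 and adjusted p of up to 0.224. PRMT5 had 7.90 and 8.77 CPM in untreated samples and 5.32 and 4.64 CPM after Dex, from 38 to 87 counts per sample, with no overlap. Its log2 fold change was -0.74 ± 0.211 (adjusted p = 0.0145). That call was lost without untreated replicate 2 (-0.66, adjusted p = 0.146), without Dex 3 h replicate 1 (-0.84, 0.0513) and without Dex 3 h replicate 2 (-0.65, 0.154). With DESeq2 neither passed (PRMT3 adjusted p = 0.118, PRMT5 0.0774).

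The other tested members showed little with Dex alone. At 3 h PRMT2 was at -0.12, CARM1 at -0.02, PRMT7 at 0.07 and PRMT9 at 0.04 on the log2 scale, and none passed. In all, 3 of 14 tests of a member with Dex alone were called, all lower and all at 3 h. Among all tested genes 4.41% were called lower at 3 h, and 1.26% were called in either direction at 15 min, where 0 members were called and 1 had an unadjusted p below 0.05. At 15 min 1749 of all 22919 tested genes had an unadjusted p below 0.05. DESeq2 called 1 of the 14, PRMT1 at 3 h. The median log2 fold change at 3 h was -0.12 over the 7 members and -0.01 over all genes.

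**Figure D2:**
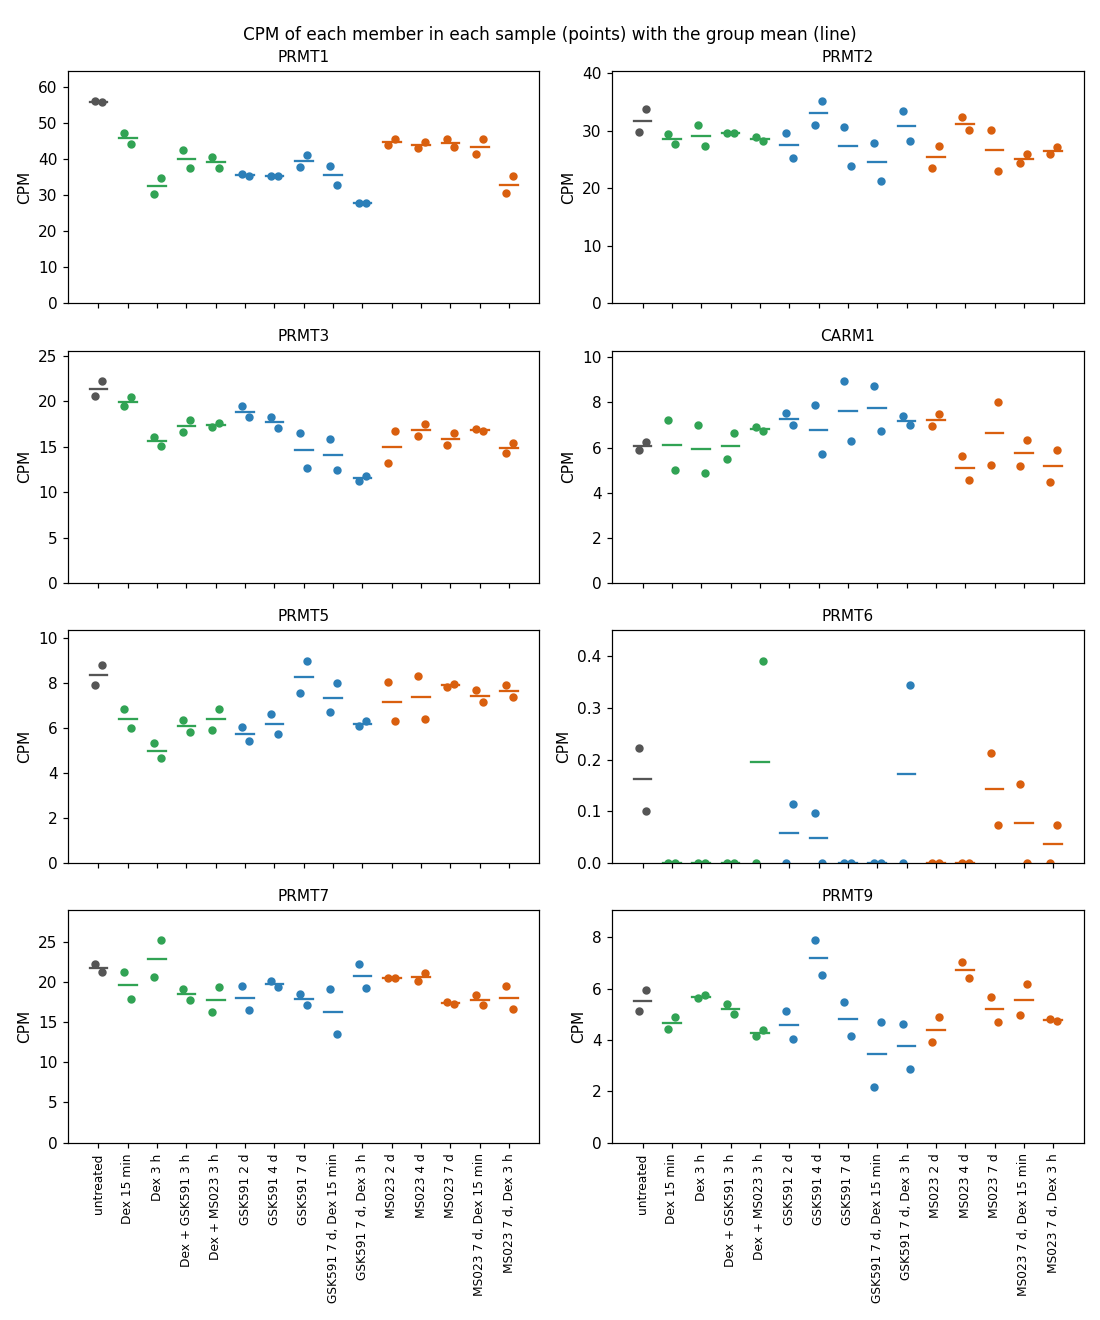
CPM of each member in each of the 30 samples, with points for samples, lines for group means, and colours for untreated cells (grey), Dex alone or given together with an inhibitor (green), GSK591 alone or before Dex (blue) and MS023 alone or before Dex (orange). PRMT1 in untreated samples (56.2 and 55.8 CPM) lies above all 28 treated samples. PRMT6 is near 0 throughout.

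With GSK591, which inhibits PRMT5 itself, PRMT1 was lower than in untreated cells at each time. PRMT1 had 36.0 and 35.4 CPM at 2 days, 35.3 and 35.4 CPM at 4 days and 37.8 and 41.3 CPM at 7 days. All 6 samples lay below both untreated samples. The log2 fold changes were -0.65 ± 0.112 (adjusted p = 0.000175), -0.66 ± 0.110 (1.07e-05) and -0.50 ± 0.111 (0.00102). These calls held when any 1 of the samples compared was left out and under all alternatives except total-count scaling.

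PRMT5, the target of GSK591, did not pass the test at any time of GSK591. It had 6.05 and 5.40 CPM at 2 days, 6.63 and 5.72 CPM at 4 days and 7.56 and 8.98 CPM at 7 days. Samples at 2 and 4 days lay below both untreated samples, and those at 7 days overlapped them. The log2 fold changes were -0.55 ± 0.210 (adjusted p = 0.118), -0.43 ± 0.200 (0.134) and -0.02 ± 0.199 (0.970). At 7 days the 95% interval ran from -0.42 to 0.38, which allows a change of about that size in either direction.

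PRMT3 was called lower at 7 days of GSK591 and not before. It had 19.5 and 18.3 CPM at 2 days, 18.3 and 17.1 CPM at 4 days and 16.5 and 12.7 CPM at 7 days. The log2 fold changes were -0.18, -0.28 and -0.55 ± 0.147 (adjusted p = 0.00818 at 7 days), and the first 2 were 0.10 and 0.14 under total-count scaling. At 7 days PRMT3 did not pass with DESeq2 (-0.52, adjusted p = 0.0524) or with edgeR under total-count scaling (-0.56, 0.179). The 7 day call was lost without untreated replicate 2 (-0.49, adjusted p = 0.102) and without GSK591 7 day replicate 2 (-0.37, 0.219). The change between 4 and 7 days did not pass (-0.27 ± 0.149, adjusted p = 0.298).

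With MS023, which inhibits the type I enzymes, PRMT1 was lower by about -0.3 on the log2 scale at all 3 times. It had 44.1 and 45.6 CPM at 2 days, 43.3 and 44.9 CPM at 4 days and 45.8 and 43.4 CPM at 7 days, all below both untreated samples. The log2 fold changes were -0.32 ± 0.108 (adjusted p = 0.0463), -0.35 ± 0.107 (0.0210) and -0.33 ± 0.107 (0.0307). Each of these 3 calls was lost when any 1 of its 4 samples was left out (log2 fold changes of -0.29 to -0.37, adjusted p of 0.0864 to 0.223) and with DESeq2 (0.0985, 0.0635 and 0.0936). Under total-count scaling the values turned positive, at 0.35, 0.40 and 0.69.

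PRMT3 was called lower with MS023 at 2 and 7 days, also only under scalings that set the typical gene to no change. It had 13.2 and 16.8 CPM at 2 days, 16.2 and 17.5 CPM at 4 days and 15.2 and 16.6 CPM at 7 days, below both untreated samples at each time. The log2 fold changes were -0.51 ± 0.142 (adjusted p = 0.0133), -0.35 ± 0.137 (0.0832) and -0.43 ± 0.138 (0.0283). The 2 day call was lost without untreated replicate 2 (-0.45, adjusted p = 0.142) and without MS023 2 day replicate 1 (-0.36, 0.256), and the 7 day call without any 1 of its 4 samples (-0.37 to -0.49). Total-count scaling gave 0.15 and 0.58 at 2 and 7 days, and the second was called higher by edgeR (adjusted p = 0.0197). With DESeq2 neither time passed (adjusted p = 0.053 and 0.122). PRMT5 stood at -0.23, -0.18 and -0.08 with MS023, with overlapping samples at each time and no call.

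PRMT2, CARM1, PRMT7 and PRMT9 were called at no time of either inhibitor alone. PRMT2, a coactivator of nuclear receptors, ran from -0.32 (MS023 at 2 days) to 0.06 (GSK591 at 4 days). CARM1, which methylates histone H3 and the coactivators it works with, ran from -0.26 (MS023 at 4 days) to 0.34 (GSK591 at 7 days). PRMT7 ran from -0.32 to -0.08 and PRMT9 from -0.33 to 0.38. Their standard errors were 0.132 to 0.263, so changes of the size seen for PRMT1 with MS023 were not detectable for CARM1 and PRMT9 at this depth.

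Together 9 of 42 tests of a member with an inhibitor alone were called, all lower: 6 of PRMT1 and 3 of PRMT3. Of the 7 members, 1 was called at 2 days of GSK591, where 2.45% of all tested genes were called lower, 1 at 4 days (8.28% of all) and 2 at 7 days (6.52%). With MS023, 2 were called at 2 days (4.21% of all called lower), 1 at 4 days (6.37%) and 2 at 7 days (6.51%). The members' median log2 fold change ran from -0.14 (GSK591 at 4 days) to -0.32 (MS023 at 2 days), while that of all genes was within 0.01 of 0 in these 6 comparisons. Without the filter on low counts 5 of the 42 were called, and DESeq2 called 3, those of PRMT1 with GSK591. Without untreated replicate 1 the count was 5, and without untreated replicate 2 it was 3.

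**Figure D3:**
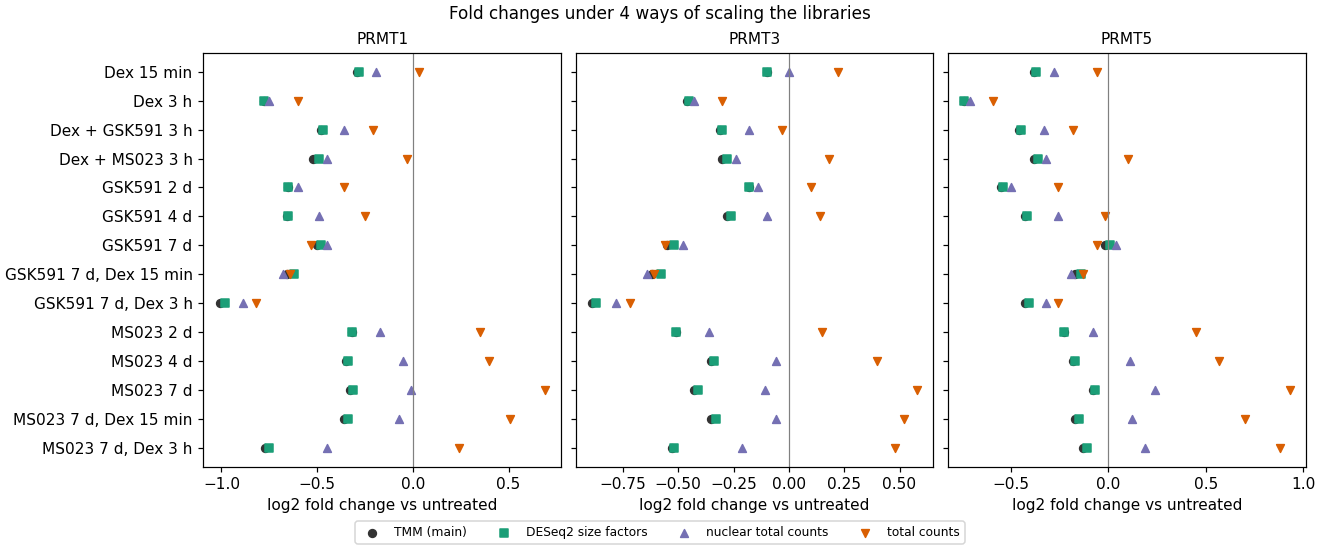
Log2 fold changes of PRMT1, PRMT3 and PRMT5 against untreated cells in 14 groups, under TMM, DESeq2 size factors, nuclear total counts and total counts as the scaling of the libraries. With MS023 for 2 days or longer, total-count scaling turned all 3 genes positive, PRMT1 to 0.24 to 0.69, while TMM and DESeq2 size factors gave negative values.

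The scaling of the libraries set the direction of these changes with MS023. Scaled by total counts, the median gene was higher than in untreated cells by 0.68, 0.74 and 1.02 at 2, 4 and 7 days of MS023, and PRMT1 relative to that median was -0.32, -0.34 and -0.33. The shift was 0.15 with 3 h of Dex and 0.29, 0.42 and -0.03 with GSK591. The share of mitochondrial counts moved with this shift, as given above, and its part in the result was not tested. Scaled by nuclear counts alone, a choice made after seeing the data, the median gene was higher by 0.16, 0.29 and 0.32 and PRMT1 was at -0.17, -0.05 and -0.01. With GSK591 the same nuclear scaling kept PRMT1 at -0.60, -0.49 and -0.45, called at each time, and at -0.75 with 3 h of Dex. Under total counts PRMT1 was at -0.36, -0.25 and -0.53 with GSK591 and at -0.60 with 3 h of Dex, and none of these passed. The changes reported are therefore changes relative to the typical gene.

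Direct comparisons of GSK591 with MS023 at matched times called 0 of 21 member tests. GSK591 and MS023 differ in the enzyme they inhibit, and both were at 1 uM. PRMT1 was lower with GSK591 than with MS023 in both samples at all 3 times, by -0.33 ± 0.112 (95% interval -0.55 to -0.10, adjusted p = 0.112), -0.32 ± 0.109 (-0.54 to -0.10, 0.0714) and -0.18 ± 0.110 (-0.40 to 0.05, 0.369) at 2, 4 and 7 days. Over all genes, 2.69%, 6.03% and 9.38% were called between the inhibitors at these times. Of the members, 2, 1 and 0 had an unadjusted p below 0.05, against 3120, 4057 and 5093 of all 22919 tested genes. When the 2 groups compared were fitted by themselves PRMT1 passed at 2 and 4 days (adjusted p = 0.0433 and 0.0233). Scaled by nuclear counts it passed at all 3 times (-0.43, -0.44 and -0.44), and DESeq2 called 0.

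No member was called between times of the same inhibitor, in 28 tests. The share of all genes called was 3.39% from 2 to 4 days and 8.29% from 4 to 7 days of GSK591, and 4.91% and 9.04% for MS023. Unadjusted p-values below 0.05 were found for 1, 2, 3 and 0 of the 7 members in these 4 comparisons, and DESeq2 called 0. Such p-values were found for 3450, 4900, 4174 and 5035 of all 22919 tested genes. PRMT9 had the widest movement. It went from 4.57 ± 0.768 CPM at 2 days of GSK591 to 7.20 ± 0.959 CPM at 4 days and 4.81 ± 0.926 CPM at 7 days (SD, n = 2), and from 4.40 ± 0.694 to 6.72 ± 0.443 and 5.19 ± 0.680 CPM with MS023. The steps from 2 to 4 days were 0.67 (adjusted p = 0.148) and 0.61 (0.132) on the log2 scale, with no overlap of samples. Fitted by themselves, the MS023 step of PRMT9 passed (adjusted p = 0.0382), as did that of PRMT2 (0.30, 0.0440).

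Dex after 7 days of inhibitor was compared with the inhibitor alone, which uses no untreated sample, and PRMT1 again was lower at 3 h. After GSK591 it went from 37.8 and 41.3 CPM without Dex to 28.0 and 27.7 CPM with 3 h of Dex, a log2 fold change of -0.50 ± 0.116 (adjusted p = 0.00200). After MS023 it went from 45.8 and 43.4 CPM to 30.5 and 35.3 CPM, a log2 fold change of -0.44 ± 0.107 (adjusted p = 0.00324). Neither pair of groups overlapped. The first call was lost without GSK591 7 day replicate 2 (-0.44, adjusted p = 0.0517). The second was lost without MS023 7 day replicate 1 (-0.39, 0.0652) and without replicate 1 of MS023 then 3 h of Dex (-0.33, 0.156).

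These were 2 of 28 tests of Dex after an inhibitor. PRMT1 was the 1 member called at 3 h in each, where 4.46% of all genes were called lower after GSK591 and 5.38% after MS023. At 15 min PRMT1 was at -0.16 after GSK591 and -0.03 after MS023, with overlapping samples, and 0 members were called or had an unadjusted p below 0.05, against 2.09% and 2.07% of all genes called in either direction. Of all 22919 tested genes, 3115 and 2475 had an unadjusted p below 0.05 at 15 min. PRMT3 fell short of the threshold at 3 h after GSK591 (-0.35 ± 0.159, adjusted p = 0.176) and was at -0.10 after MS023. PRMT5 was at -0.41 ± 0.209 (adjusted p = 0.237) after GSK591 and at -0.04 ± 0.180 (0.929) after MS023.

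**Figure D4:**
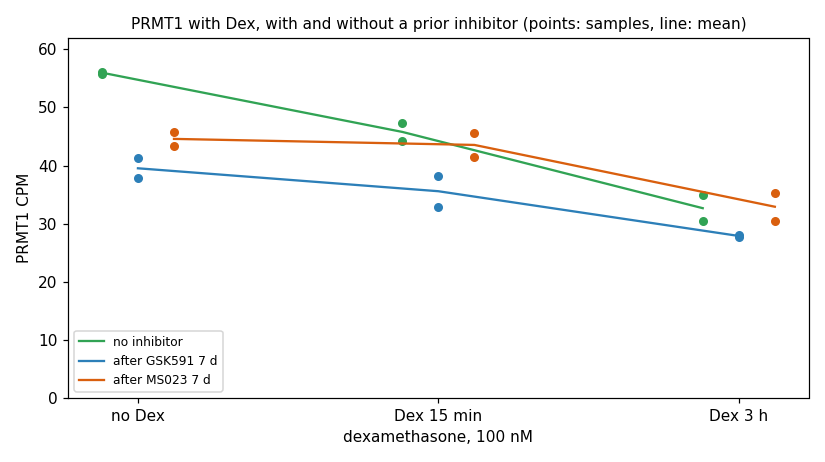
PRMT1 CPM without Dex, at 15 min and at 3 h of 100 nM Dex, in cells without inhibitor and after 7 days of GSK591 or MS023, with points for samples and lines for means. At 3 h of Dex all 3 settings lie lower than without Dex, at means of 32.7, 27.9 and 32.9 CPM.

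Whether the inhibitor altered the response to 3 h of Dex was tested as an interaction, and 0 of 14 member tests passed. For PRMT1 the response after GSK591 minus that without it was 0.28 ± 0.161 (95% interval -0.05 to 0.60, adjusted p = 0.665), and for MS023 0.34 ± 0.155 (0.03 to 0.65, 0.492). For PRMT5 and MS023 the difference was 0.70 ± 0.278 (0.14 to 1.26, adjusted p = 0.383). Positive values mean a smaller fall after the inhibitor. Over all genes 0.223% passed for each inhibitor, and 0 members for GSK591 and 2 for MS023 had an unadjusted p below 0.05. Of all 22919 tested genes, 2035 and 2087 had an unadjusted p below 0.05, for GSK591 and MS023. DESeq2 called 0 members. Interactions of the size seen for PRMT1 were not detectable with 2 samples per group.

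Adding an inhibitor at the same time as Dex for 3 h gave no call of a member relative to Dex alone, in 14 tests. PRMT1 had 42.5 and 37.7 CPM with Dex and GSK591 and 40.7 and 37.7 CPM with Dex and MS023, above both samples of Dex alone. The differences were 0.30 ± 0.113 (adjusted p = 0.846) and 0.26 ± 0.114 (0.273). Among all genes 0% and 0.196% were called, for GSK591 and MS023. In each, 2 of 7 members had an unadjusted p below 0.05, PRMT1 and PRMT7, with PRMT7 lower by -0.31 and -0.36, and DESeq2 called 0. Of all 22919 tested genes, 1306 and 3222 had an unadjusted p below 0.05, for GSK591 and MS023.

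Against untreated cells, the 6 groups with both Dex and an inhibitor gave 10 calls in 42 tests, all lower, while total-count scaling gave 15 calls of which 3 were lower. PRMT1 was called in all 6 and was lowest of all groups at 7 days of GSK591 then 3 h of Dex, with 28.0 and 27.7 CPM, 49.8% of the untreated mean (-1.01 ± 0.113, adjusted p = 7.38e-10). It was at -0.77 ± 0.108 (2.56e-07) after MS023 then 3 h of Dex, at -0.66 and -0.36 with 15 min of Dex after GSK591 and after MS023, and at -0.48 and -0.52 with Dex and GSK591 and with Dex and MS023. Under total-count scaling PRMT1 after MS023 was at 0.51 at 15 min and 0.24 at 3 h of Dex. That scaling called 13435 and 15427 of all 22919 tested genes in these groups, 99.4% and 99% of them higher. The call for MS023 then 15 min of Dex was lost without either untreated sample (-0.37, adjusted p = 0.0774 and 0.0735) and without its own replicate 1 (-0.28, 0.200). The call for Dex and GSK591 was lost without its replicate 2 (-0.40, 0.0780), and that for Dex and MS023 when those 2 groups were fitted by themselves (adjusted p = 0.0991).

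PRMT3 was called in 3 of these 6 groups. It was lowest at GSK591 then 3 h of Dex, with 11.3 and 11.8 CPM (-0.89 ± 0.15, adjusted p = 6.72e-06), a call that held in every alternative. At GSK591 then 15 min of Dex it had 15.9 and 12.4 CPM (-0.62 ± 0.147, 0.00195), lost without replicate 2 of that group (-0.44, 0.142). At MS023 then 3 h of Dex it had 14.3 and 15.4 CPM (-0.53 ± 0.139, 0.00369), lost without untreated replicate 2 (-0.47, 0.0710) or without replicate 1 of that group (-0.47, 0.0572) and turned to 0.48 under total-count scaling. PRMT7 gave the last call, at GSK591 then 15 min of Dex, with 19.1 and 13.5 CPM against 22.2 and 21.3 CPM untreated (-0.44 ± 0.149, adjusted p = 0.0371). It rested on replicate 2 of that group, without which it was -0.19 (0.617), and was lost without either untreated sample (-0.41 and -0.47). The PRMT7 call was also lost with DESeq2 (adjusted p = 0.174). With edgeR it was lost under DESeq2 size factors (0.0585), total counts (0.311) and a fit of the compared groups alone (0.137). In that same group PRMT9 had 16 and 49 counts in its 2 samples.

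Of the 7 members, 1 was called lower with Dex and GSK591 (4.86% of all genes called lower), 1 with Dex and MS023 (5.24%), 3 at GSK591 then 15 min of Dex (8.37%) and 2 at GSK591 then 3 h of Dex (13%). After MS023, 1 was called at 15 min (8.7%) and 2 at 3 h (10.6%). PRMT2 came closest among the rest, at -0.38 ± 0.140 with an adjusted p of 0.0532 at GSK591 then 15 min of Dex.

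The authors' deposited tables cover the same 14 comparisons with untreated cells from another counting and list 7 of the 8 members, all but PRMT6. In them the mean normalised count per library was 352 for PRMT1 and 324 for PRMT3. The count table holds 12550 and 5169 counts of these genes summed over all 30 libraries, at means of 39.8 and 16.5 CPM. A mean and a sum cannot be set against each other directly. The 2 genes were close to each other in the first source and far apart in the second, so the 2 sources did not count the same reads. Exons make up 4.49% of the PRMT3 gene and 36.2% of the PRMT1 gene, and the part of this in the difference was not tested. In the authors' deposited tables PRMT1 had an adjusted p below 0.05 in 12 of 14 comparisons and a negative log2 fold change in all 14, from -0.17 (Dex at 15 min) to -1.33 (GSK591 then 3 h of Dex). The counts gave 13 calls and 14 negative values.

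The authors' deposited log2 fold changes and standard errors do not give their p-values. For PRMT5 at 15 min of Dex they hold -0.06 ± 0.138 (SE) with an unadjusted DESeq2 p of 0.233. Their log2 fold changes may thus be on another scale than those of edgeR, and differences in size between the sources cannot be read directly. For PRMT3 the sources differed in their calls. The authors' deposited tables called it in 1 comparison, GSK591 then 3 h of Dex (-0.54), against 7 in the counts, and gave 0.26 at 15 min of Dex and -0.16 at 7 days of GSK591. PRMT5 was called in 0 in the authors' deposited tables, with -0.19 (adjusted p = 0.555) at 3 h of Dex, where the counts gave -0.74. PRMT2 was called once in the authors' deposited tables, higher with Dex and MS023 (0.35, adjusted p = 0.0258), where the counts gave -0.15 (0.533). PRMT9 was negative in 2 of 14 comparisons in the authors' deposited tables and in 10 of 14 in the counts. Over 98 member tests, 22 were called in the counts and 14 in the authors' deposited tables. Both called 13, each time with the same sign, 12 of them for PRMT1.

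**Figure D5:**
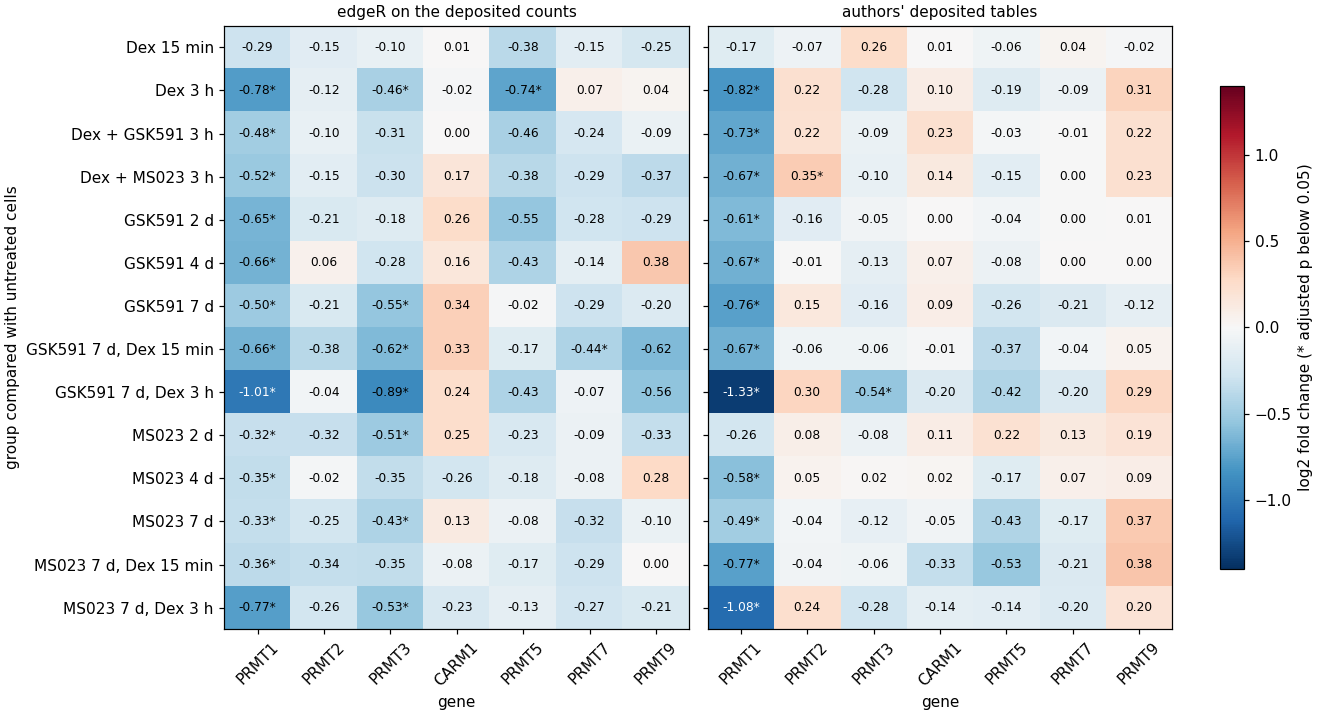
Log2 fold changes of 7 members against untreated cells in 14 groups, from edgeR on the deposited counts (left) and from the authors' deposited tables (right), with an asterisk where the adjusted p is below 0.05. PRMT1 is negative in all 14 groups in both panels, whose values may be on different scales. The left panel uses TMM, and under total-count scaling PRMT1 was above 0 at 15 min of Dex and in the 5 groups with MS023 for 2 days or longer.

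In the authors' deposited tables the share of genes called lower was 11% for Dex at 3 h, 9.16%, 14% and 13% for GSK591 at 2, 4 and 7 days, and 12.3% for MS023 at 4 and at 7 days, each with PRMT1 as the only member called. It was 10.6% for Dex and GSK591, 11.9% for GSK591 then 15 min of Dex and 12.4% and 16.3% for MS023 then 15 min and 3 h of Dex, again with PRMT1 alone. At GSK591 then 3 h of Dex it was 18.5%, with PRMT1 and PRMT3 called. Counted in either direction, 3.93% of genes were called for Dex at 15 min and 17.7% for MS023 at 2 days, with 0 members, and 19.8% for Dex and MS023, with PRMT1 lower and PRMT2 higher.

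Across the 15 group means of log2 CPM, the members did not move as one. As a description over 15 groups that share libraries and depth, Pearson's r was 0.69 between PRMT1 and PRMT3, 0.54 between PRMT1 and PRMT5, 0.64 between PRMT2 and PRMT7 and -0.60 between CARM1 and PRMT9. It was -0.01 between PRMT3 and PRMT5. The range of group means, as the highest over the lowest, was 2.01-fold for PRMT1, 1.86-fold for PRMT3, 1.67-fold for PRMT5, 1.35-fold for PRMT2, 1.4-fold for PRMT7, 1.52-fold for CARM1 and 2.09-fold for PRMT9, whose lowest group holds the sample with 16 counts.

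Out of 11110 candidate genes of 5 CPM or more on average, those with the pattern most like PRMT1 over the 15 groups were UTP14A (r = 0.902), ANKMY1 (0.880) and NOL8 (0.877). UTP14A and NOL8 encode nucleolar proteins. For PRMT3 they included BRPF1 (0.888) and LOC100507250 (0.882), and for PRMT5 they were KIAA2026 (0.831), CTTNBP2NL (0.831) and RFX7 (0.824). The closest genes were NCF1 (0.878), which has near-identical pseudogene copies that can share its reads, NDEL1 (0.850) and SLC25A46 (0.829) for PRMT2, USP11 (0.860), PLCD4 (0.838) and HOMER3 (0.830) for CARM1, BET1L (0.856), RPS6KA4 (0.807) and AC243829.1 (0.805) for PRMT7, and DPY19L2P3 (0.890), LRRC28 (0.879) and LBR (0.870) for PRMT9.

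Genes that work with the members were read from fixed lists, described by counts and medians without a set test. The partners of PRMT5 (WDR77, its core cofactor, and the adaptors CLNS1A, RIOK1 and COPRS) showed 2 calls in 28 tests over Dex at 3 h and the 6 groups of an inhibitor alone, comparisons in which 5.64% to 17.2% of all genes were called in either direction. COPRS, which directs PRMT5 to histones, rose at 2 days of GSK591 from 14.4 ± 1.61 to 31.9 ± 9.58 CPM (SD, n = 2, log2 fold change 1.14 ± 0.320, adjusted p = 0.0487). RIOK1, which competes with CLNS1A for PRMT5, fell at 7 days of MS023 from 6.21 ± 0.658 to 3.68 ± 0.804 CPM (-0.75 ± 0.249, 0.0357), a value that turned to 0.28 under total-count scaling. Neither passed when scaled by nuclear counts (0.0648 and 0.214). Of the other methyltransferases, METTL23 fell at 7 days of GSK591 (-0.58 ± 0.153, adjusted p = 0.00750), NDUFAF7 was not called, and PRMT8, with 28 counts in all, was not tested.

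Of the regulators of PRMT1, 2 or 3 of 4 were called higher in each of these comparisons. BTG1 and BTG2 are antiproliferative proteins that bind PRMT1, TOB1 is their relative, and CNOT7 is a deadenylase that BTG proteins bind. Of the 4, all tested, 2 were called higher with Dex at 3 h, 3, 2 and 2 at 2, 4 and 7 days of GSK591 and 2, 3 and 2 at 2, 4 and 7 days of MS023, and 0 were called lower, while 10.5%, 5.64%, 17.2%, 13.2%, 10.4%, 14.2% and 13.6% of all genes were called in either direction. BTG2 went from 13.5 ± 0.0304 CPM in untreated cells to 33.1 ± 1.26 CPM at 7 days of GSK591 (SD, n = 2, log2 fold change 1.29 ± 0.168, adjusted p = 5.85e-07). It was at 24.1 ± 2.36 CPM with 3 h of Dex (0.83 ± 0.172, 0.000700). BTG1 went from 28.7 ± 1.33 to 52.6 ± 1.72 CPM at 7 days of MS023 (0.88 ± 0.122, 6.37e-07). The medians of the 4 were 0.18 with Dex and 0.34 to 0.55 with an inhibitor, against all-gene medians within 0.02 of 0, and were positive under total and nuclear scaling too.

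Among readers and modifiers of methylarginine, JMJD6, an enzyme that was described as an arginine demethylase and hydroxylates lysines, was called higher in 6 of the 7 comparisons. With Dex at 3 h it rose from 12.5 ± 1.67 to 27.2 ± 0.895 CPM (1.11 ± 0.138, adjusted p = 2.15e-08), and it rose at 2 and 4 days of GSK591 (0.56 and 0.62) and at 2, 4 and 7 days of MS023 (0.77, 0.81 and 0.45). Of the 11 genes of this list 9 were tested, KDM4E and PADI4 had 7 and 24 counts, and 0 to 2 were called higher and 0 to 1 lower in each of the 7 comparisons, against 5.64% to 17.2% of all genes called in either direction. Under total counts 4, 4 and 7 of the 9 were called higher at 2, 4 and 7 days of MS023 and 0 lower in any comparison. That scaling called 9228, 11285 and 16196 of all 22919 tested genes at these times of MS023, and 99.2%, 99% and 99.5% of those were higher. SMN2, a Tudor-domain protein with a near-identical copy in SMN1 that can share its reads, was called higher at 4 days of GSK591 (0.66). PHF1, a Polycomb-associated Tudor protein, rose with 3 h of Dex from 28.0 ± 0.137 to 41.5 ± 2.37 CPM (0.57 ± 0.117, adjusted p = 0.00042). It fell at 7 days of GSK591 (-0.47, adjusted p = 0.00701), a call lost under nuclear and total counts (0.0559 and 0.24). PADI2, which converts peptidylarginine to citrulline, is below the level set for named genes and was chosen after its values were seen. It fell with 3 h of Dex from 1.27 ± 0.0611 to 0.236 ± 0.184 CPM (-2.41 ± 0.666, adjusted p = 0.0111). PADI2 had 275 counts over all 30 libraries. Its level with Dex lies within the 0.212 to 0.410 CPM that a count of 0 allows, so the size of this fall is uncertain.

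In the methionine cycle, which supplies the methyl donor, MAT2A, the enzyme that makes S-adenosylmethionine, fell with GSK591 from 128 ± 2.03 to 87.4 ± 12.9 CPM at 4 days (-0.56 ± 0.102, adjusted p = 5.87e-05) and to 88.8 ± 5.03 CPM at 7 days (-0.53 ± 0.102, 0.000170). It rose with 3 h of Dex to 165 ± 8.31 CPM (0.36 ± 0.1, 0.0106). MTR, the methionine synthase, fell at 2, 4 and 7 days of GSK591 (-0.55, -0.54 and -0.49) and at 4 and 7 days of MS023 (-0.44 and -0.51), with the value at 4 days of MS023 at 0.31 under total-count scaling. MAT2B, the regulatory subunit beside MAT2A, fell at 7 days of MS023 (-0.71, at 0.31 under total counts). MTAP, which recycles methylthioadenosine, fell with Dex (-0.58, adjusted p = 0.0263). Scaled by nuclear counts, MTAP (edgeR adjusted p = 0.0618), MAT2B (0.249) and MTR at 4 days of MS023 (0.491) did not pass. The MAT2A calls named above passed under that scaling. DDAH1 and DDAH2, which break down free asymmetric dimethylarginine, were called higher. DDAH2 was called at 4 days of GSK591 (0.76) and at 2 and 4 days of MS023 (0.68 and 0.54). DDAH1 was called at 7 days of GSK591 (0.63). Under total counts DDAH1 (edgeR adjusted p = 0.212) and MAT2A with Dex (0.123) did not pass, while the DDAH2 calls held. Of the 9 genes, 0 to 1 were called higher and 0 to 3 lower in each comparison, against 5.64% to 17.2% of all genes called in either direction. Under total counts 0 were called lower in any comparison, and 5, 8 and 8 were called higher at 2, 4 and 7 days of MS023. That scaling called 9228, 11285 and 16196 of all 22919 tested genes at these times of MS023. Of those, 99.2%, 99% and 99.5% were higher, so the list counts go with a shift of all genes.

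Of the 30 genes of known substrates, 6, 15 and 14 were called lower at 2, 4 and 7 days of GSK591 and 7, 12 and 14 at 2, 4 and 7 days of MS023, with 1 called higher (PABPN1 at 2 days of MS023, 0.39). Among all genes 2.45%, 8.28% and 6.52% were called lower with GSK591 and 4.21%, 6.37% and 6.51% with MS023 at these times. The medians were -0.28, -0.51 and -0.57 with GSK591 and -0.30, -0.50 and -0.53 with MS023, against medians of all genes within 0.01 of 0. Total-count scaling turned the MS023 medians to 0.37, 0.25 and 0.49, below the shift of all genes, and that at 2 days of GSK591 to 0.01. Under it 1, 4 and 6 substrates were called lower with GSK591, and with MS023 0 were called lower and 11, 9 and 13 higher. Of all 22919 tested genes it called 9228, 11285 and 16196 with MS023, and 99.2%, 99% and 99.5% of those were higher. Nuclear scaling left all 6 negative, with 5, 8 and 6 called lower and 3, 0 and 3 called higher with MS023. With 3 h of Dex 3 were called lower and 1 higher, where 4.41% of all genes were called lower. The largest fall was that of HNRNPA1, a splicing regulator, at -0.46 ± 0.0964 (adjusted p = 0.000496). Under total counts 0 of the 30 were called in either direction with Dex, and HNRNPA1 was at -0.29 (edgeR adjusted p = 0.518). Nuclear scaling called 1 lower and 1 higher, with HNRNPA1 at -0.44 (0.00689).

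The substrates with the largest falls were E2F1, a cell cycle transcription factor, at 4 and 7 days of GSK591 (-1.97 and -1.58), and TAF15, an RNA-binding protein, at 2 days of GSK591 (-1.57). E2F1 went from 15.3 ± 2.97 CPM in untreated cells to 3.91 ± 0.852 CPM at 4 days of GSK591 (SD, n = 2, adjusted p = 6.19e-10). With MS023 the largest falls were HNRNPA2B1 at 2 days (-1.17 ± 0.275, adjusted p = 0.0121) and NCL, the nucleolar protein nucleolin, at 4 and 7 days (-1.43 and -1.66). NCL went from 333 ± 47.6 to 105 ± 9.97 CPM at 7 days of MS023 (adjusted p = 0.00522). Under total counts HNRNPA2B1 and NCL stayed negative (-0.49, -0.68 and -0.64) and did not pass.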

How the data were processed

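PRO-seq was measured in 30 samples of A549 cells in 15 groups of 2. The deposited count table holds whole-number read counts per gene for 58780 genes, not normalised. The submitters' processing notes name featureCounts 2.0.1 of the Subread package and the hg38 build. The aligner, the feature type and the use of strand are not given in the sources used here. All 58780 identifiers match GENCODE 29, which gave positions and exonic lengths. The 14 comparison tables deposited by the authors have 28873 genes each. Per the file headers they hold DESeq2 values: a mean signal of normalised counts (baseMean), log2 fold changes and p-values.

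The test on counts was the quasi-likelihood test of edgeR 4.0.16 (limma 3.58.1, R 4.3.3), with TMM scaling, robust fitting and filterByExpr (minimum count 10, minimum total 15), which kept 22919 genes. A single model held all 15 groups, leaving 15 residual degrees of freedom. P-values of the 29 comparisons were adjusted by Benjamini-Hochberg, each over all tested genes, with a threshold of 0.05. The interaction is the response to 3 h of Dex after 7 days of inhibitor minus that without it. With 2 samples per group a permutation test of 1 gene could not pass, so each test rests on the spread shared over groups. Standard errors were obtained by dividing the log2 fold change by the root of F. The procedure was tested on simulated data. Patterns were compared as Pearson's r of mean log2 CPM with a prior count of 2.

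Members and lists were chosen with earlier results of these data known. Named genes are the members, genes whose exons overlap theirs, the called list genes of at least 5 CPM with the largest rise and fall in 7 comparisons, and the 3 genes most like each member, of which 1 is not reported here. NDUFAF7, CNOT7, TOB1, WDR77, CLNS1A, KDM4E, PADI4 and PRMT8 are named as list members only, and PADI2 was chosen after its values were seen. The alternatives were DESeq2 size factors, total counts, no filter, DESeq2 1.42.0, the compared groups alone, a replicate block, no mitochondrial or ribosomal RNA genes, and each sample left out.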

Additional observations from a re-analysis of the deposited data

Results flagged for a closer look

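PRMT3 had differences of opposite sign after 15 min of Dex in cells without an inhibitor and in cells after 7 days of MS023. Both samples were lower than both untreated samples in the first case, with a mean log2 change of -0.10. Both were higher than both samples of MS023 alone in the second, with a mean log2 change of 0.08. The difference between the 2 changes was -0.18. Under total-count scaling the first change was 0.22. Against untreated cells that scaling put PRMT3 at 0.58 with MS023 alone and at 0.52 with 15 min of Dex after it. The second change was thus below 0, and both signs turned. The pair was singled out because every sample of one setting moved one way and every sample of the other moved the opposite way, and the difference itself was not tested. Neither change passed the test on its own (adjusted p = 0.974 and 0.921).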

How the results depend on the processing

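The 24 calls of a member were all lower. Of these, 21 were lost or turned around under total-count scaling, 8 under nuclear total counts (chosen after seeing the data), 10 with DESeq2, 5 without the filter on low counts, 2 in a fit of the compared groups alone and 1 with DESeq2 size factors. None was lost under the replicate block or without mitochondrial and ribosomal RNA genes. Apart from total counts, 8 calls held in every setting, left-out samples included.

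With Dex alone the 3 calls became 0 under total counts and 1 with DESeq2. With an inhibitor alone the 9 became 5 without the filter, 4 under nuclear total counts and 3 with DESeq2, and under total counts there were 12, all higher. Of all 22919 tested genes, total counts called 984, 4631 and 1135 at 2, 4 and 7 days of GSK591. At 2, 4 and 7 days of MS023 the numbers were 9228, 11285 and 16196, of which 99.2%, 99% and 99.5% were higher. Between GSK591 and MS023 the 0 calls became 9 under total counts, 3 under nuclear total counts and 2 with the compared groups alone. Over time they became 3 under total counts and 2 with the compared groups alone. For Dex after an inhibitor the 2 became 0 under total counts. For both against untreated cells the 10 became 15 under total counts, of which 3 were lower. Of all tested genes, total counts called 13435 and 15427 at MS023 then 15 min and 3 h of Dex, 99.4% and 99% of them higher. In the other groups with both, 1504 to 4910 genes were called. Leaving out 1 sample gave 1 to 3 calls for Dex alone, 3 to 8 for an inhibitor alone, 1 to 2 for Dex after an inhibitor, 7 to 12 for both against untreated cells, and 0 in the other comparisons.

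Total counts reversed 29 log2 fold changes that were called under either scaling; sign changes of values called under neither are not counted. At 2 days of MS023 PRMT1, PRMT3 and PRMT7 became 0.35, 0.15 and 0.59. At 4 days PRMT1, PRMT2 and PRMT7 became 0.40, 0.72 and 0.67. At 7 days PRMT1, PRMT2, PRMT3, PRMT5, PRMT7 and PRMT9 became 0.69, 0.76, 0.58, 0.93, 0.70 and 0.92. Between GSK591 and MS023 at 7 days PRMT2, CARM1, PRMT5 and PRMT7 became -0.98, -0.81, -0.99 and -1. At MS023 then 15 min of Dex PRMT1, PRMT2, PRMT3, CARM1, PRMT5 and PRMT7 became 0.51, 0.53, 0.52, 0.79, 0.70 and 0.59. At MS023 then 3 h of Dex PRMT1, PRMT2, PRMT3, CARM1, PRMT5, PRMT7 and PRMT9 became 0.24, 0.75, 0.48, 0.78, 0.88, 0.74 and 0.79. The shift of all genes under that scaling was 0.68 to 1.02 in the MS023 groups against untreated cells and -1.07 between the inhibitors at 7 days. The cause of the other changes was not tested.

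The replicate numbers gave no pairing common to all groups. Deviations of same-numbered samples correlated between groups from -0.451 to 0.487, with a median of 0.021. Of 105 pairs of groups, 22 were over 0.1, so some groups may share such deviations, and their source was not tested. With the replicate block the counts of calls were 3, 9, 0, 0, 0, 2 and 0, as without it, except that the groups with both Dex and an inhibitor gave 11 in place of 10 against untreated cells, with PRMT2 at GSK591 then 15 min of Dex passing (-0.39, adjusted p = 0.0426 by edgeR). Depth limits PRMT6, CARM1 and PRMT9 most.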
